A study of Mus musculus with 8 samples.

Results

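The genes described here are 47 mouse genes of mitosis, listed by name for what their proteins do in dividing cells: mitotic kinesins, centromere and kinetochore proteins, spindle checkpoint proteins, mitotic kinases, the chromosomal passenger complex, G2/M cyclins, anaphase factors, spindle assembly and cytokinesis proteins, and the chromosome proteins Mki67 and Top2a. Of the 47, 46 had an array probe set that the annotation maps to that gene alone, among 18193 such genes, and each was read from its brightest one. Ccnb1 was not analysed here. In all, 45 of the 46 were bright enough to be tested, among 11345 genes. The exception was Kif15, a kinesin that helps to hold spindle poles apart, whose signals were 80.3 and 97.0 in irradiated and 86.1 and 100.2 in untreated TNFR KO tumours, against 18.9 and 90.6 in irradiated and 89.7 and 27.9 in untreated WT tumours.

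The genes were measured in whole tumours of B16F1, a pigmented mouse melanoma cell line, grown under the skin of the right hind limb of mice aged 8 to 12 weeks. The first pair of groups was tumours from hosts lacking both TNF receptors (TNFR KO; B6;129S-Tnfrsf1a[tm1Imx] Tnfrsf1b[tm1Imx]/J), excised 5 h after a single X-ray dose of 20 Gy or left untreated, and the second pair was tumours from C57BL/6-NCr wild-type hosts (WT), irradiated in the same way or left untreated. Between 5 and 7 mice were injected, and the tumours had reached 268 to 478 mm3. RNA of each group was combined into 1 pool, and each of the 4 pools was read on 2 arrays, so the 2 values given for a group are technical duplicates of the same RNA. The same melanoma cells, with receptor genes of their own, were injected into both hosts, so the deletion concerns host cells alone. The labels call both host strains C57BL/6, while the stock name of the TNFR KO mice includes 129S.

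In a dividing cell, microtubules form a bipolar spindle that attaches to each chromosome at its kinetochore. The spindle checkpoint delays anaphase until every kinetochore is attached, after which securin is destroyed, separase opens cohesin and the central spindle guides the cleavage furrow. Transcripts of these genes accumulate in late S phase and G2 and are scarce in resting cells. Many of their promoters hold CCAAT boxes, bound by NF-Y, and a cell-cycle homology region (CHR), through which the DREAM complex represses them in resting cells and the MuvB complex with B-MYB and FOXM1 activates them before mitosis. After DNA damage p53 induces p21, the product of Cdkn1a, and these promoters are known to be repressed by way of DREAM.

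Both motifs were searched on both strands of the promoters, from 250 bases before to 50 bases after the gene start (RefSeq, build GRCm38.p6), which were at hand for 40 of the 47 genes. The CCAAT box, which reads as ATTGG from the other strand, was found in 29 of the 40 (72.5%), against 41.1% of the 27025 genes with promoters at hand. A gene was counted when any of its promoters matched. A CHR was searched as the 6 letters TTTGAA, which read as TTCAAA from the other strand, and also as the palindrome TTCGAA. It was found in 30 (75%), against 21.7%. Both were found in 26 (65.0%), against 8.6% of the 27025 genes. Of the 9238 tested genes with promoters at hand, 42.9% held a CCAAT box, 15.9% a CHR and 6.5% both. In 29 members a CHR lay between 100 bases before and 50 after the start, and in 1 member, Cdca8, letters of the motifs overlapped. These matches describe the letters and are not evidence of binding. The 4 promoters below are those of the members with both motifs that had the largest called host or radiation differences, given further on: Bub1 (checkpoint kinase; chr2:127831810-127832109, minus strand), Mki67 (chromosome surface protein Ki-67; chr7:135716330-135716629, minus strand), Ttk (checkpoint kinase MPS1; chr9:83834439-83834738, plus strand) and Hmmr (spindle protein RHAMM; chr11:40733388-40733687, minus strand). Capitals mark the CCAAT and CHR matches.
Bub1: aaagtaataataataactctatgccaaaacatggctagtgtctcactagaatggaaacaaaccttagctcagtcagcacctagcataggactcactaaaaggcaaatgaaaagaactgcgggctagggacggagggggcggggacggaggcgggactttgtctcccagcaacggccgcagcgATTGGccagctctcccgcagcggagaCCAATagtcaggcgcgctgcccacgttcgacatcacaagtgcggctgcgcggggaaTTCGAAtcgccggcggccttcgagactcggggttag
Mki67: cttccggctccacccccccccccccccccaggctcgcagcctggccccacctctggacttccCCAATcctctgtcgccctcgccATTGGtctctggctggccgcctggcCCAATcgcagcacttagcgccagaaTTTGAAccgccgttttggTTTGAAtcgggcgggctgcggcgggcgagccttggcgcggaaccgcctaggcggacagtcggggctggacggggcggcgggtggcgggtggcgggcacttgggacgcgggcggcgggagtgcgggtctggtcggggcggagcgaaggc
Ttk: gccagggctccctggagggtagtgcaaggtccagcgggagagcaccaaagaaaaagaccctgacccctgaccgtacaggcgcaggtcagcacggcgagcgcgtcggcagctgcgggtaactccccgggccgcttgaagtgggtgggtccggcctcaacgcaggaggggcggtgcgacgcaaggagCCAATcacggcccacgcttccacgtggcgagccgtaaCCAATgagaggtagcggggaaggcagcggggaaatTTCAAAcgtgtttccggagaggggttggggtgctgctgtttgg
Hmmr: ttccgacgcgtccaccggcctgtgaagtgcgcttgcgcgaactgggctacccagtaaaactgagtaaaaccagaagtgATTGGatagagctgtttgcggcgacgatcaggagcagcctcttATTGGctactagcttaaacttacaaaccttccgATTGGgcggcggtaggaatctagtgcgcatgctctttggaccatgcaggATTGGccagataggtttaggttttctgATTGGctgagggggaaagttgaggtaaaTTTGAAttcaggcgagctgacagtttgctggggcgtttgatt
The Hmmr promoter holds 5 CCAAT boxes, all before a single CHR, and the Mki67 promoter holds 3 CCAAT boxes and 2 CHR matches.

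Values are MAS5 signal intensities as deposited, with a 2%-trimmed mean of 500.00 on every array, and log2 differences are of log2(signal + 16). A probe set's level is not compared with that of another. Duplicate arrays correlated at 0.975 to 0.981, and with 8 arrays in all the precision of each value is limited by their number. Over both hosts or both treatments, differences come from limma on the 4 pool means, called at an adjusted p (Benjamini-Hochberg over all 11345 genes) under 0.05. Their error joins how far a gene's radiation effects lie apart between hosts (1 degree of freedom) with a typical spread over all tested genes (9.52 degrees of freedom). The second part weighs more, so most standard errors lie close together. Neither part contains spread between animals or replicate pools. Comparisons of 2 single pools come from limma on the 8 arrays, called at an adjusted p under 0.05 and at least a 2-fold difference, and their p-values measure only the spread between duplicate arrays. Spike-in transcripts (dap, lys, phe, thr) averaged 12.0 to 20.8 on TNFR KO arrays, against 5311 to 10134 on WT arrays, so host and preparation of the labelled RNA cannot be told apart in any host difference. Controls also differed with treatment. From untreated to irradiated pools, these spike-ins were 1.39 times as high in TNFR KO and 1.87 times in WT hosts. The controls bioB and cre were 1.16 and 1.11 times as high in TNFR KO and 1.32 and 1.31 times in WT hosts. Their part in the radiation differences was not tested. A signal for 18S ribosomal RNA was 1.79 times as high in the irradiated as in the untreated TNFR KO pool and 1.16 times as high in the irradiated as in the untreated WT pool, and its part in the results was not tested. In whole tumours, fewer dividing cells and less RNA per dividing cell cannot be told apart.

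Transcripts of mitosis were lower in irradiated tumours of both hosts 5 h after the dose. Of the 45 tested members, 43 had a log2 difference below 0 over both hosts, against 52.8% of all tested genes, and their median was -0.51, against -0.02. Both irradiated arrays lay below both untreated arrays in each host for 35 of the 45 members, against 18.9% of all tested genes. Past the threshold, 7 members fell (0.353% of all tested genes were called lower) and 0 rose (1.55% were called higher), while 30 members had an unadjusted p under 0.05 in limma, all of them lower, against 16.7% of all tested genes in either direction. The 7 were the kinesin Kif20a, the kinetochore proteins Cenpe and Cenpf, the kinase Nek2 and the spindle proteins Aspm, Hmmr and Tpx2. These calls rest on all 8 arrays: leaving out the second WT irradiated array kept 3 members lower (Cenpf, Hmmr and Kif20a), and leaving out any one of the other arrays kept 0, as did quantile normalization, no pseudocount or no filter on dim genes (29, 30 and 25 members with an unadjusted p under 0.05). A difference of -0.5 or lower was reached by 24 members (53.3%), against 3.01% of all tested genes. Centring each array on its median put the median of all tested genes at -0.16 and that of the members at -0.65.

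**Figure D1:**
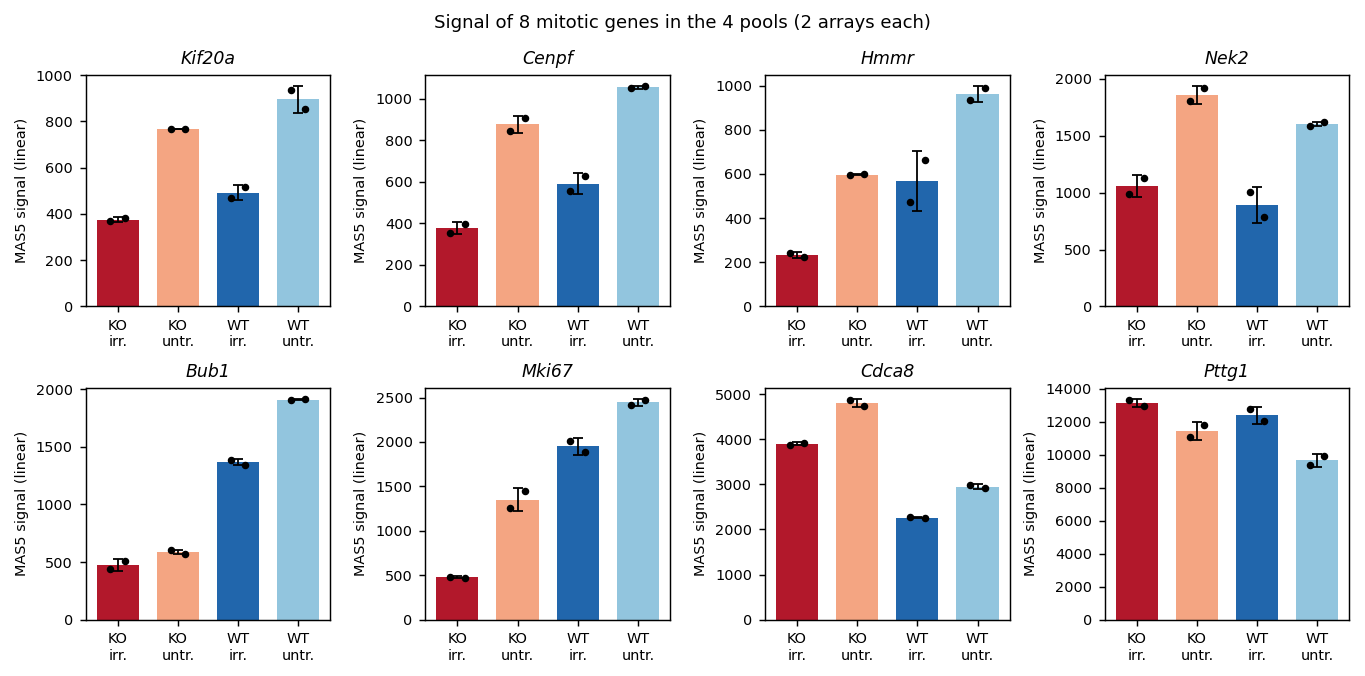
Signal intensity (linear axis from 0) of 8 members in the irradiated (irr.) and untreated (untr.) pools of TNFR KO (KO) and WT hosts, with bars for the mean, error bars for the SD and points for the 2 arrays of each pool. Kif20a, Cenpf, Hmmr and Nek2 were lower in the irradiated pool of each host, Bub1 and Mki67 lower and Cdca8 higher in TNFR KO pools, and Pttg1 was higher in the irradiated pool of each host.

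Among the mitotic kinesins, motors that move chromosomes and microtubules, all 7 tested genes were lower over both hosts, with a median of -0.62 and 1 call. Kif20a, which works at the central spindle in cytokinesis, read 368 and 384 in irradiated and 768 and 766 in untreated TNFR KO tumours, against 469 and 516 in irradiated and 938 and 856 in untreated WT tumours. Irradiated and untreated arrays did not overlap in either host, and Kif20a fell by 0.92 (0.16 SE, adjusted p = 0.0171, limma on pool means). Kif11, the motor that pushes spindle poles apart, differed by -0.71 ± 0.16 (adjusted p = 0.0519) and Kif2c, a microtubule depolymerase, by -0.62 ± 0.16 (adjusted p = 0.0869), neither past the threshold. The smallest difference of the group was that of Kif22, a chromosome-bound kinesin, at -0.20 ± 0.16.

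All 6 centromere and kinetochore genes were lower, with a median of -0.62. Cenpf, a large kinetochore protein, read 355 and 398 in irradiated and 847 and 906 in untreated TNFR KO tumours, against 555 and 628 in irradiated and 1051 and 1062 in untreated WT tumours. Cenpe, the kinetochore motor that brings chromosomes to the spindle equator, read 112 and 119.7 in irradiated and 198 and 257 in untreated TNFR KO tumours, against 237 and 268 in irradiated and 370.1 and 429 in untreated WT tumours. In both hosts the irradiated arrays of both genes lay below the untreated ones, and both fell, Cenpf by 1.00 (0.17 SE, adjusted p = 0.0146) and Cenpe by 0.75 (0.16 SE, adjusted p = 0.048). A dimmer second probe set of Cenpf gave 0.09, so its value depends on the probe set read. Of the NDC80 complex, which binds the microtubule end, Nuf2 differed by -0.70 ± 0.16 (adjusted p = 0.0532), Ndc80 by -0.28 ± 0.16 and Spc25 by -0.11 ± 0.17. Spc25 had one of the 3 smallest radiation differences among the members, and it read 1161 and 1249 in irradiated and 1197 and 1161 in untreated TNFR KO tumours, against 1923 and 1912 in irradiated and 2314 and 2229 in untreated WT tumours; its irradiated and untreated arrays were close to each other in the TNFR KO pools.

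The 5 spindle checkpoint genes had a median of -0.46 and 0 calls. The checkpoint kinase Bub1 differed by -0.39 ± 0.16, its relative Bub1b by -0.57 ± 0.17, the anaphase inhibitor Mad2l1 by -0.56 ± 0.17 and Ttk by -0.46 ± 0.16. Bub3, the adaptor that carries both BUB proteins to the kinetochore, did not share that direction and read 11868 and 11805 in irradiated and 11305 and 11646 in untreated TNFR KO tumours, against 8671 and 8879 in irradiated and 8654 and 9152 in untreated WT tumours. Its radiation difference was 0.01 ± 0.16 as deposited and turned negative with quantile normalization or with arrays centred on their median, and a second probe set gave -0.30.

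All 4 of the polo, Aurora A and NEK2 kinases were lower, with a median of -0.57 and 1 call. Nek2, which parts the centrosomes before mitosis, read 990.1 and 1128 in irradiated and 1802 and 1917 in untreated TNFR KO tumours, against 1007 and 784 in irradiated and 1588 and 1617 in untreated WT tumours. The groups did not overlap in either host, and Nek2 fell by 0.82 (0.16 SE, adjusted p = 0.0305). Plk1 differed by -0.62 ± 0.16 (adjusted p = 0.0844), Aurka by -0.51 ± 0.16 and the centriole kinase Plk4 by -0.38 ± 0.16.

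The chromosomal passenger complex had a smaller shift, with a median of -0.23 over its 4 genes and 0 calls. Its kinase subunit Aurkb read 2458 and 2469 in irradiated and 2045 and 2047 in untreated TNFR KO tumours, against 1449 and 1585 in irradiated and 2063 and 2053 in untreated WT tumours. Aurkb was lower on both irradiated arrays in WT hosts and higher on both irradiated arrays in TNFR KO hosts, which left -0.09 ± 0.19 over both. Birc5 (survivin) differed by -0.21 ± 0.17, Incenp by -0.25 ± 0.18 and Cdca8 (borealin) by -0.34 ± 0.16. The 4 cyclin, CDK1 and CDC25C genes had a median of -0.53 and 0 calls, between -0.60 for the phosphatase Cdc25c, which activates CDK1, and -0.33 for Cdk1 itself.

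Of the genes of anaphase, the activator Cdc20 differed by -0.43 ± 0.16, the ubiquitin-conjugating enzyme Ube2c by -0.24 ± 0.16 and separase, Espl1, by -0.43 ± 0.17, with 0 calls. Pttg1, which encodes securin, the inhibitor of separase, was the other member with a difference above 0, at 0.28 ± 0.16 (adjusted p = 0.429). It read 13327 and 12972 in irradiated and 11083 and 11821 in untreated TNFR KO tumours, against 12775 and 12027 in irradiated and 9399 and 9954 in untreated WT tumours, and it was the 1 member of 45 with both irradiated arrays above both untreated arrays in each host, against 15.1% of all tested genes. The second Pttg1 probe set gave 0.23 over both hosts, with 0.52 in TNFR KO hosts and -0.07 in WT hosts.

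The spindle assembly proteins had the lowest median of the groups with more than 2 genes, -0.73, and 3 of their 6 members fell. Hmmr, a protein of spindle microtubules, read 242 and 224 in irradiated and 596 and 598 in untreated TNFR KO tumours, against 471 and 663 in irradiated and 935 and 989 in untreated WT tumours. Tpx2, which activates Aurora A on the spindle, read 703 and 721 in irradiated and 1461 and 1346 in untreated TNFR KO tumours, against 998 and 1071 in irradiated and 1541 and 1605 in untreated WT tumours. Aspm, a protein of spindle poles, read 320.3 and 301 in irradiated and 561 and 626 in untreated TNFR KO tumours, against 656 and 596 in irradiated and 971 and 989 in untreated WT tumours. Each of the 3 was lower on every irradiated array than on any untreated array of the same host. Hmmr fell by 1.03 (0.18 SE, adjusted p = 0.0166), Tpx2 by 0.78 (0.17 SE, adjusted p = 0.048) and Aspm by 0.77 (0.17 SE, adjusted p = 0.0477). Prc1, which bundles central spindle microtubules, differed by -0.68 ± 0.17 (adjusted p = 0.0763), and the spindle proteins Nusap1 and Dlgap5 by -0.31 ± 0.16 and -0.33 ± 0.16. Among cytokinesis genes, Anln (anillin) differed by -0.65 ± 0.17, Racgap1 by -0.47 ± 0.16 and Ect2, which activates RhoA at the furrow, by -0.23 ± 0.16. Topoisomerase IIα, Top2a, differed by -0.68 ± 0.17 with a second probe set at 0.04.

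**Figure D2:**
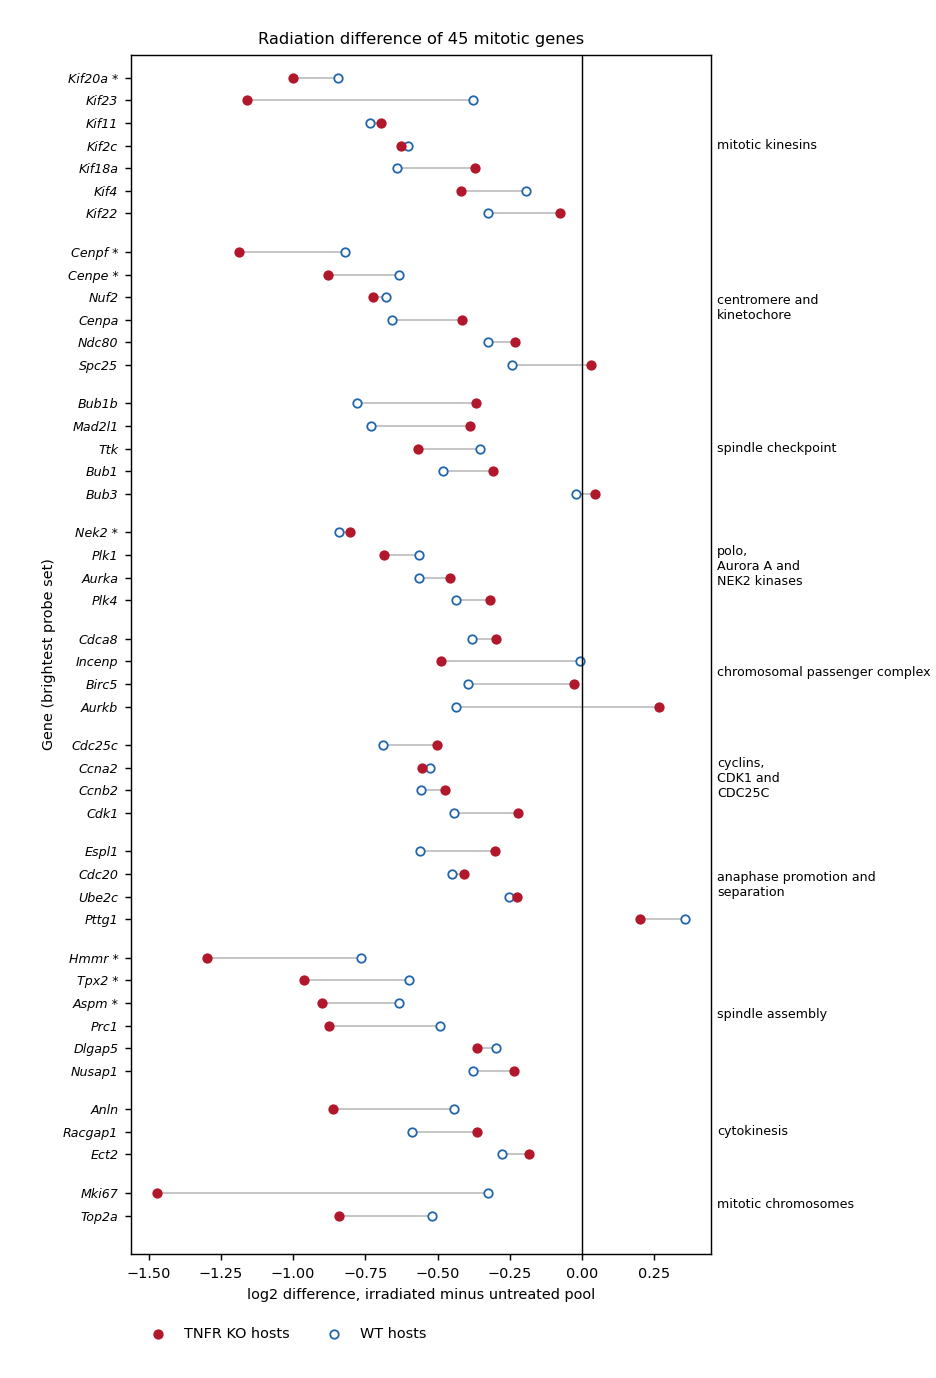
Log2 difference between irradiated and untreated pools for each of the 45 tested members, grouped by role, with filled circles for TNFR KO hosts and open circles for WT hosts; asterisks mark the 7 genes called lower over both hosts. Nearly all points lie left of 0, with Pttg1 right of 0 in both hosts and Aurkb on opposite sides of 0.

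The pools can also be read host by host. In TNFR KO tumours the members' median difference was -0.42, and 4 fell at least 2-fold past the threshold, Cenpf, Hmmr, Kif23 and Mki67, where 0.485% of all tested genes were called lower; averaging all probe sets of a gene left 1. No member was 2-fold higher (0.881% of all tested genes). Without the fold threshold, 29 were lower (14.4% of all tested genes) and Aurkb was higher (9.43%). The difference was below 0 for 41 members (52.7% of all tested genes), and both irradiated arrays lay below both untreated ones for 37 (35.7%). In WT tumours the members' median was -0.49, against -0.02 for all tested genes (-0.75 and -0.28 with arrays centred on their median). As deposited, 0 members fell at least 2-fold (0.203% of all tested genes), since no member's difference reached -1, and 0 rose 2-fold (2.25%). With limma on the 8 arrays 40 members had an unadjusted p under 0.05 (39.9% of all tested genes), 39 of them lower. Without the fold threshold 34 were lower (13.4% of all tested genes) and Pttg1 was higher (12.1%). The difference was below 0 for 44 members (52.7% of all tested genes), with both irradiated arrays below both untreated ones for 39 (36.4%). Both hosts gave a difference below -0.5 for 14 members, against 1.16% of all tested genes. Across the 45 members the TNFR KO and WT radiation differences, which share no pool, correlated at r = 0.52 (Spearman rho = 0.55), against r = 0.37 (rho = 0.35) across all tested genes; genes measured on the same arrays are not independent points.

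Genes that regulate this programme were read beside it. Cdkn1a, which encodes the CDK inhibitor p21, read 19738 and 18701 in irradiated and 5479.5 and 5619 in untreated TNFR KO tumours, against 19462 and 19042 in irradiated and 4990.2 and 5003 in untreated WT tumours, and it rose by 1.87 ± 0.16 over both hosts (adjusted p = 0.00032) with no overlap between irradiated and untreated arrays. Foxm1, which encodes a transcription factor that activates G2/M genes, differed by -0.20 ± 0.17 after irradiation (adjusted p = 0.598). Mybl2, which encodes B-MYB, differed by 0.00 ± 0.18 (adjusted p = 0.9996). Neither Foxm1 nor Mybl2 passed the test of host (adjusted p = 0.0881 and 0.0885).

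Other mitosis genes, from a list of 67 further G2/M genes of which 64 were tested, had a radiation median of -0.26, with 49 of 64 below 0. Of these, 0 were called lower and 1 was higher. That gene, Gtse1, which encodes a microtubule-associated protein of G2 and S phase, rose by 1.47 ± 0.17 (adjusted p = 0.00183). The 44 tested S phase and DNA replication genes had a radiation median of -0.09 and 0 calls lower, with 0.11 in TNFR KO hosts and -0.30 in WT hosts. The 18 condensin and cohesin genes, which shape and hold chromosomes, had a median of -0.28 and 0 calls. Among p53 targets, 14 of 14 tested genes were above 0, with a median of 1.55. No test between these lists was made. The 4 erythroid markers (3 at the tested level) also moved with irradiation, with sums of 4489.9 to 5145 in irradiated and 586 to 659 in untreated TNFR KO tumours, against 1886 to 1966 in irradiated and 495 to 620.1 in untreated WT tumours, and their part in the results was not tested. The 7 skeletal muscle markers (5 at the tested level, 3 of them called lower, median -1.09) moved the other way, with sums of 671 to 693 in irradiated and 1391 to 1448 in untreated TNFR KO tumours, against 967.5 to 1159 in irradiated and 3223 to 3329 in untreated WT tumours. Their part was not tested either.

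**Figure D3:**
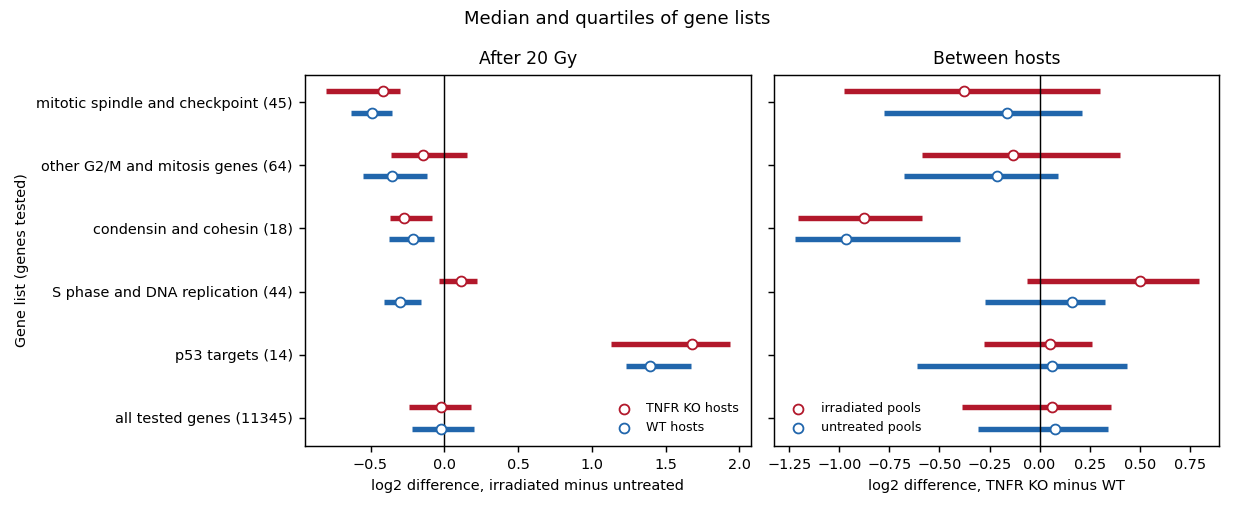
Median log2 difference of each gene list for the radiation difference in each host (left panel, TNFR KO above WT) and the host difference at each treatment (right panel, irradiated above untreated). Points are medians and bars run from the lower to the upper quartile of the genes of a list. A further row gives all tested genes. Of the 5 lists plotted, the mitotic spindle and checkpoint members have the lowest medians in the left panel, -0.42 and -0.49, and in the right panel the condensin and cohesin genes have the lowest, -0.88 and -0.97.

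In TNFR KO hosts the mitotic genes did not all move one way. Compared with WT hosts over both treatments, 19 of the 45 members were lower (18.9% of all tested genes were called lower) and 4 were higher (12.0% were called higher). One of the lower calls was Kif18a, whose 4 TNFR KO arrays all lay under the filter signal of 68.8, so that it was tested only because of its WT arrays; without it 18 of 44 were lower. The median of the 45 was -0.30 (-0.17 with all probe sets of a gene averaged), against 0.09 for all tested genes. Without the filter on dim genes limma called 0 members in either direction (23 had an unadjusted p under 0.05). Both TNFR KO arrays lay below both WT arrays at each treatment for 24 members (23 without Kif18a), against 26.1% of all tested genes, and above them for 14 members, against 30.5%. The calls were spread unevenly over the roles, which hold few genes each and were not tested against one another. Lower calls went to 5 of 6 spindle assembly genes (median -0.76) and 4 of 6 centromere and kinetochore genes (median -0.82). The chromosomal passenger complex (median 0.45, 2 of 4 called higher) and the anaphase genes (median 0.30, 1 of 4 called higher) had 0 lower calls. All 8 of their genes were above 0, where 42.6% of all tested genes were below 0. Higher calls among the 45 members were no more frequent than among all tested genes.

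The checkpoint held both directions. Bub1 read 436 and 509 in irradiated and 601 and 574 in untreated TNFR KO tumours, against 1385 and 1346 in irradiated and 1906 and 1914 in untreated WT tumours. Ttk, the kinase that starts checkpoint signalling at unattached kinetochores, read 142 and 138 in irradiated and 228 and 202 in untreated TNFR KO tumours, against 363 and 330.3 in irradiated and 432 and 461 in untreated WT tumours. All 4 TNFR KO arrays were below all 4 WT arrays for both genes, and both were called, Bub1 at -1.59 ± 0.16 (adjusted p = 0.000245) and Ttk at -1.11 ± 0.16 (adjusted p = 0.000874). A second Bub1 probe set also lay lower, at -0.58. Bub1b differed by 0.34 ± 0.17, Bub3 by 0.40 ± 0.16 and Mad2l1 by -0.45 ± 0.17, none past the threshold.

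Among the kinesins, Kif18a, which damps chromosome movements at the spindle equator, read 39.6 and 39.2 in irradiated and 56.1 and 55.2 in untreated TNFR KO tumours, against 90.0 and 153 in irradiated and 208 and 178 in untreated WT tumours. Kif11 read 333 and 316 in irradiated and 571 and 502 in untreated TNFR KO tumours, against 596 and 532 in irradiated and 936 and 959 in untreated WT tumours. Kif23, the motor of the centralspindlin complex, read 275 and 283 in irradiated and 572 and 722 in untreated TNFR KO tumours, against 662 and 684 in irradiated and 987 and 783 in untreated WT tumours. At each treatment the TNFR KO arrays lay below the WT arrays for all 3. The Kif18a difference was -1.41 ± 0.17, given as a description because the filter kept this gene only through its WT arrays. Called lower were Kif11, at -0.79 ± 0.16 (adjusted p = 0.00488), and Kif23, at -0.83 ± 0.20 (adjusted p = 0.0109). The Kif23 call was lost without the first TNFR KO untreated, the first WT untreated or the first WT irradiated array. Kif22 read 7442 and 8565 in irradiated and 8242 and 8606 in untreated TNFR KO tumours, against 4395 and 4566 in irradiated and 5747 and 5497 in untreated WT tumours, and it was higher in TNFR KO hosts, at 0.71 ± 0.16 (adjusted p = 0.00946). A second Kif22 probe set gave 0.44.

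The 3 measured subunits of the NDC80 complex, the main microtubule receptor of the kinetochore, were lower in TNFR KO hosts. Ndc80 read 116 and 138 in irradiated and 135 and 169 in untreated TNFR KO tumours, against 326 and 233 in irradiated and 383 and 320.0 in untreated WT tumours. Nuf2 read 456 and 434 in irradiated and 741 and 749 in untreated TNFR KO tumours, against 807 and 835 in irradiated and 1390.1 and 1259 in untreated WT tumours. With Spc25, given above, they differed by -1.08 ± 0.16 (Ndc80, adjusted p = 0.00092), -0.84 ± 0.16 (Nuf2, adjusted p = 0.00352) and -0.80 ± 0.17 (Spc25, adjusted p = 0.00528), although a second Spc25 probe set gave 0.00. Cenpe was also lower, at -0.90 ± 0.16 (adjusted p = 0.00279). Cenpa, the histone H3 variant that marks centromeres, differed by 0.35 ± 0.16 and was not called.

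Plk4, the kinase that starts centriole duplication, read 353 and 294 in irradiated and 425 and 387 in untreated TNFR KO tumours, against 644 and 721 in irradiated and 924 and 930.5 in untreated WT tumours, and it was lower in TNFR KO hosts, at -1.10 ± 0.16 (adjusted p = 0.000836), with all 4 TNFR KO arrays below all 4 WT arrays. The other kinases of that group lay above 0 without a call, Plk1 at 0.36 ± 0.16, Aurka at 0.32 ± 0.16 and Nek2 at 0.23 ± 0.16. Ccna2, which encodes cyclin A2, read 1624 and 1459 in irradiated and 2362 and 2172 in untreated TNFR KO tumours, against 2589 and 2444 in irradiated and 3578 and 3686 in untreated WT tumours. Its arrays did not overlap between hosts, and it was lower, at -0.69 ± 0.16 (adjusted p = 0.00935). A second Ccna2 probe set gave -0.23. The cyclin Ccnb2 had the smallest host difference of the members, -0.04 ± 0.16, and read 3319 and 3005 in irradiated and 4356 and 4438 in untreated TNFR KO tumours, against 3207 and 3090.3 in irradiated and 4566 and 4717 in untreated WT tumours. Ube2c followed at 0.06 ± 0.16, a sign that turned with arrays centred on their median, and read 6626 and 5703 in irradiated and 7276 and 7092 in untreated TNFR KO tumours, against 6083 and 5593 in irradiated and 6559.6 and 7360.5 in untreated WT tumours. Cdc25c followed at 0.09 ± 0.16 and read 257 and 289 in irradiated and 425 and 363 in untreated TNFR KO tumours, against 251 and 227 in irradiated and 396 and 392 in untreated WT tumours. The hosts' arrays lay close together for all 3.

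The 4 higher members were Kif22, already given, 2 subunits of the passenger complex and separase. Cdca8 read 3875 and 3926 in irradiated and 4866 and 4736 in untreated TNFR KO tumours, against 2265 and 2259 in irradiated and 2983 and 2915 in untreated WT tumours. Incenp, the scaffold of that complex, read 5219 and 5007 in irradiated and 7331 and 7031 in untreated TNFR KO tumours, against 4195 and 4212 in irradiated and 4400.4 and 4052 in untreated WT tumours. Espl1 read 1237 and 959.9 in irradiated and 1334 and 1356 in untreated TNFR KO tumours, against 581 and 602 in irradiated and 932 and 829 in untreated WT tumours. TNFR KO arrays lay above WT arrays of the same treatment for each of them, and the differences were 0.74 ± 0.16 for Cdca8 (adjusted p = 0.00671), 0.52 ± 0.18 for Incenp (adjusted p = 0.0459) and 0.73 ± 0.17 for Espl1 (adjusted p = 0.00796). The Incenp call was lost when any single array was left out. Second probe sets gave 0.36 for Cdca8 and 0.35 for Incenp.

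All 6 spindle assembly genes had a host difference below 0, and all but Tpx2, at -0.35 ± 0.17, were called lower in TNFR KO hosts. Nusap1, which bundles microtubules near chromosomes, read 560.0 and 648 in irradiated and 749 and 675 in untreated TNFR KO tumours, against 1375 and 1408 in irradiated and 1951 and 1684 in untreated WT tumours. Dlgap5, which stabilises fibres at kinetochores, read 332 and 274 in irradiated and 329 and 468 in untreated TNFR KO tumours, against 587 and 429.9 in irradiated and 714 and 539.9 in untreated WT tumours. Prc1 read 809 and 872 in irradiated and 1608 and 1504 in untreated TNFR KO tumours, against 1326 and 1441 in irradiated and 1899.5 and 2006 in untreated WT tumours. All 3 were lower on TNFR KO arrays than on WT arrays of the same treatment. Nusap1 was called at -1.26 ± 0.16 (adjusted p = 0.000472), Dlgap5 at -0.67 ± 0.16 (adjusted p = 0.0105) and Prc1 at -0.52 ± 0.17 (adjusted p = 0.0422). The Dlgap5 call was lost without any of the same 3 arrays as that of Kif23, and the Prc1 call without any one of the 8, and a second Dlgap5 probe set gave 0.10. Hmmr and Aspm were lower, at -0.94 ± 0.18 and -0.84 ± 0.17 (adjusted p = 0.00352 and 0.00402).

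Of the cytokinesis genes, Anln read 854 and 816 in irradiated and 1498 and 1561 in untreated TNFR KO tumours, against 1885 and 1841 in irradiated and 2549 and 2526 in untreated WT tumours. Ect2 read 726 and 719 in irradiated and 897 and 755 in untreated TNFR KO tumours, against 1199 and 1250.2 in irradiated and 1578 and 1403 in untreated WT tumours. Both were lower in TNFR KO hosts without overlap, Anln at -0.93 ± 0.17 (adjusted p = 0.00295) and Ect2 at -0.80 ± 0.16 (adjusted p = 0.00468), while Racgap1, the partner of Kif23 in centralspindlin, differed by 0.11 ± 0.16. Mki67, described below, was lower, at -1.42 ± 0.24 (adjusted p = 0.0017), and Top2a differed by -0.26 ± 0.17, with a second probe set at 0.49.

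**Figure D4:**
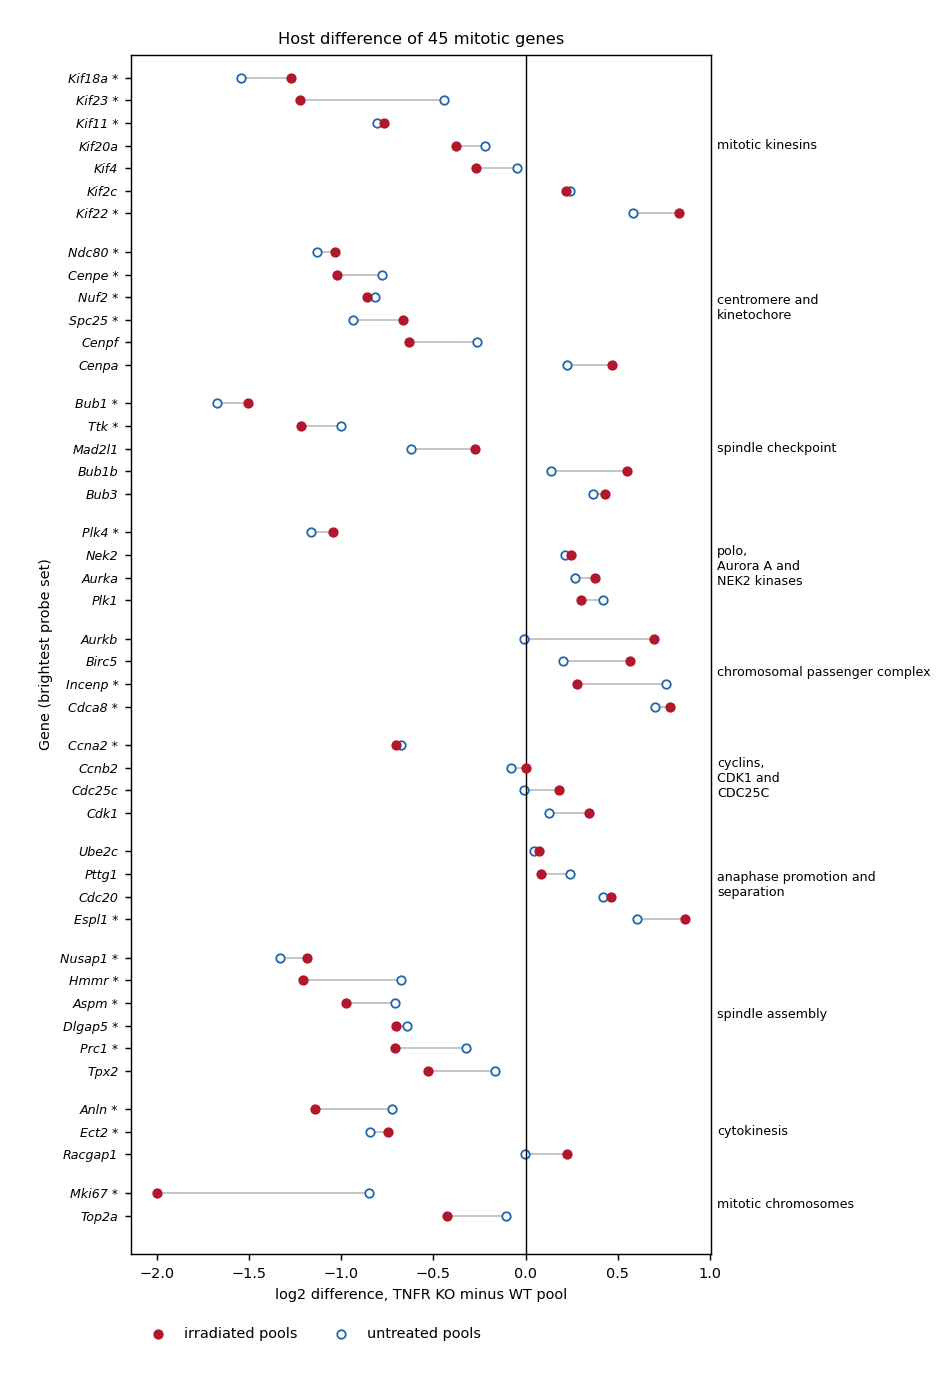
Log2 difference between TNFR KO and WT pools for each of the 45 tested members, grouped by role, with filled circles for irradiated and open circles for untreated pools; asterisks mark the 19 genes called lower and the 4 called higher over both treatments. Filled and open circles lie near each other for most members, and Mki67 has the lowest filled circle, at -2.00.

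The host difference was read at each treatment as well. In irradiated tumours 11 members were at least 2-fold lower in TNFR KO hosts (7.43% of all tested genes), or 4 with all probe sets of a gene averaged, and the median of the 45 was -0.38 (-0.22 with that averaging). In untreated tumours 6 were, Bub1, Kif18a, Ndc80, Nusap1, Plk4 and Ttk (6.25% of all tested genes). There the median of the 45 was -0.16, against 0.08 for all tested genes (-0.36 and -0.12 with arrays centred on their median). The members' median was -0.08 with all probe sets of a gene averaged and -0.09 with the filter at the 75th percentile. Without Kif18a the counts were 10 of 44 in irradiated and 5 of 44 in untreated tumours. No member was 2-fold higher at either treatment, where 0.793% of all tested genes were called higher in irradiated and 2.06% in untreated tumours, and without the fold threshold 15 members were higher in irradiated (28.4% of all tested genes) and 12 in untreated tumours (26.4%). An unadjusted p under 0.05 was reached by 38 members in irradiated (61.3% of all tested genes) and 34 in untreated tumours (56.8%). Across the 45 members the host differences of irradiated and untreated pools, which share no pool, correlated at r = 0.89 (Spearman rho = 0.90), against r = 0.72 (rho = 0.69) across all tested genes.

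A second probe set at the tested level existed for 27 members. Its radiation difference had the sign of the brightest one in 23 of them, with Bub3, Cenpf, Spc25 and Top2a as exceptions, and the median was -0.44, against -0.54 for the brightest sets of the same genes. Its host difference had the same sign in 23, with Cenpf, Dlgap5, Spc25 and Top2a as exceptions, but the median was 0.10, against -0.26. All 13 of those with a host difference above 0 kept their sign, and 10 of the 14 below 0 did. The brightest sets of Aurkb, Cdc20, Cdc25c, Incenp, Kif22 and Kif2c are of a kind that may also read related sequences, and those of Bub3, Cdca8, Nek2, Plk4, Prc1 and Pttg1 are of a kind that may match several transcripts.

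Other gene lists were set beside the host difference. Of the 64 other G2/M genes, 25 were called lower and 7 higher, with a median of -0.26. Among all tested genes 18.9% were called lower and 12.0% higher. The largest were the kinesin Kif20b (-1.61 ± 0.16, adjusted p = 0.000245), Shcbp1, a protein of the central spindle (-1.58), the kinetochore proteins Cenpk (-1.51) and Mis12 (-1.38), and Depdc1a (-1.35). Of the 18 condensin and cohesin genes, 14 were called lower, with a median of -0.93. The S phase and DNA replication genes had a median of 0.35, with 13 of 44 called higher and 3 called lower. Markers of other cells also differed between the pools. Summed over 8 fibroblast markers (6 at the tested level), the signal was 10009 to 10052 in irradiated and 14885 to 15253 in untreated TNFR KO tumours, against 7377 to 7419 in irradiated and 4780 to 4891 in untreated WT tumours. Of the 6 tested fibroblast markers, 4 were called higher and 1 lower in TNFR KO hosts over both treatments. In irradiated tumours 1 was at least 2-fold higher and 1 at least 2-fold lower. The 11 macrophage markers (11 at the tested level) summed to 10496 to 10850.0 in irradiated and 15722 to 16212 in untreated TNFR KO tumours, against 14252 to 14597 in irradiated and 7442 to 7474 in untreated WT tumours. The 9 melanocyte markers (9 at the tested level), which mark the tumour cells, summed to 172489 to 182123 in irradiated and 171936 to 181771 in untreated TNFR KO tumours, against 180650.1 to 201601 in irradiated and 165548 to 176570 in untreated WT tumours, so the ranges of the sums overlapped between hosts at each treatment. Of these 9 markers, 1 was called lower in TNFR KO hosts over both treatments and 0 higher, with a median of 0.01. The 6 neutrophil markers (3 at the tested level) summed to 1072 to 1149 in irradiated and 965 to 980.3 in untreated TNFR KO tumours, against 23119 to 23848 in irradiated and 3616 to 3959.9 in untreated WT tumours. Of the 5 tested skeletal muscle markers, with the sums given above, all 5 were below 0 and 4 were called lower in TNFR KO hosts (median -0.88). The 6 keratinocyte markers (3 at the tested level, all 3 called higher) summed to 723 to 808 in irradiated and 1972 to 2185 in untreated TNFR KO tumours, against 556.5 to 573 in irradiated and 337 to 410.4 in untreated WT tumours. The 8 endothelial markers (7 at the tested level, 3 of them called higher) summed to 2297 to 2451 in irradiated and 3057 to 3075 in untreated TNFR KO tumours, against 2038 to 2088 in irradiated and 1583 to 1618 in untreated WT tumours. The part of any of these lists in the mitotic differences was not tested.

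The radiation effect itself differed between hosts past the threshold for 1 of the 45 members. That share is near that of all tested genes, of which 2.05% were called lower and 0.159% higher. Mki67, whose protein Ki-67 coats mitotic chromosomes and is the usual marker of proliferating cells, read 484 and 469 in irradiated and 1258 and 1445 in untreated TNFR KO tumours, against 2015 and 1884 in irradiated and 2418 and 2474 in untreated WT tumours. It was lowest in the irradiated TNFR KO pool, and the 4 pools did not overlap. Its radiation difference was -1.47 ± 0.08 in TNFR KO hosts and -0.33 ± 0.08 in WT hosts, and the difference between them was -1.14 ± 0.12 (adjusted p = 0.00692, limma on 8 arrays), which was below 2-fold and not called with arrays centred on their median. Without the fold threshold, Anln (-0.42) and Incenp (-0.48) also had the lower radiation difference in TNFR KO hosts (6.04% of all tested genes), and Aurkb (0.70) and Birc5 (0.37) the higher one (3.52%). These counts too were near the shares of all tested genes. The irradiated TNFR KO pool was the lowest of the 4 for 24 members (28.2% of all tested genes), among them Mki67, Bub1 and Hmmr, and the irradiated WT pool for 19 (26.2%), among them Plk1, Aurkb and Cdc20. With arrays centred on their median, the median of the 45 members was 0.27, with 11 below 0, and that of all tested genes was 0.22. As deposited, the members' median was 0.04, with 20 below 0, against -0.01 and 50.9% for all tested genes. These p-values hold the spread between duplicate arrays alone, and no difference between hosts in the spread of animals could be measured with 1 pool in each group.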

How the data were processed

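The deposited values are signal intensity per probe set on a linear scale, made by the authors with MAS5, per the submitters' processing notes, which give no version. Whole-tumour RNA of each group was pooled and 6 µg labelled, per the labels' protocols. Of 45101 probe sets, 64 were controls, and 34945 others named 1 gene in the array annotation. Each gene was its probe set with the highest mean log2 signal, and 11345 genes were tested whose level reached the median over the non-control probe sets (6.41 in log2, a signal of 68.8), on log2(signal + 16) with limma 3.58.1 in R 4.3.3. The mean of log2 signals was taken for that ranking after the counts under it and under the mean of linear signals, which calls fewer members for radiation, had both been seen. Host and radiation differences were fitted on 4 pool means with an additive model (1 residual and 9.52 prior degrees of freedom). Single pools, and the difference between radiation effects, used the 8 arrays and a mean for each of the 4 groups, which leaves 4 residual degrees of freedom. Tests were two-sided, and p-values were adjusted over all tested genes. Simulated data were used to check the radiation fit over both hosts, that in WT hosts and the difference between radiation effects. The host fit and the other steps were not checked in that way. The replicate numbers did not pair arrays, since deviations of same-numbered arrays correlated at -0.03 to 0.05 over 6 pairs of groups. The members and gene lists were chosen with earlier results of these data known. Members called over both hosts or treatments, or in the difference between radiation effects, and those with the 3 largest or smallest differences, have their array values given. Promoters are RefSeq sequences matched by symbol. Drawing used matplotlib 3.10.9. Alternatives were quantile normalization, median-centred arrays, other pseudocounts (none, 64), other filters, the mean of probe sets, limma-trend, other fold thresholds (1.5, none), replicate blocks and leaving out each array.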

Additional observations from a re-analysis of the deposited data

Results flagged for a closer look

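Mki67 was singled out because its radiation effect differed between hosts by a test of the difference itself. It read 483.8 and 469.0 in irradiated and 1258 and 1445 in untreated TNFR KO tumours, against 2015 and 1884 in irradiated and 2418 and 2474 in untreated WT tumours. The difference between radiation effects was -1.14 on the log2 scale, past the threshold in limma on 8 arrays. That test sees only the spread between duplicate arrays of single pools. With arrays centred on their median the difference was not called. Mki67 was 1 call among 45 members, near the share of all tested genes (2.05% called lower and 0.159% higher). Groups had 2 arrays each, too few to look for an array far from the rest of its group.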

How the results depend on the processing

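The count of members lower after irradiation over both hosts, 7, moved most: it was 0 with quantile normalization, no pseudocount or no filter, 4 with the brightest probe set taken by linear mean (chosen after seeing the data), 16 with median-centred arrays, 20 with a filter at the 75th percentile, 21 with a pseudocount of 64 and 25 with limma-trend. Fitted on 8 arrays it was 33 with no replicate block and 31 with the replicate number as a block. Leaving out 1 array gave 0 to 3. Of all 11345 genes, 40 were lower in the main fit, 148 with median-centred arrays, 172 with a pseudocount of 64 and 321 with limma-trend. The filter at the 75th percentile gave 155 of 7092 genes. Fits on 8 arrays gave 1409 of 11345 without and 1019 with the replicate block. The members' median stayed below 0 in every setting tried, between -0.65 and -0.37. For host, 19 lower became 0 with no filter, and 4 higher became 0 with no filter, 10 with limma-trend and 13 on 8 arrays with or without the replicate block. Leaving out 1 array gave 16 to 18 lower. Of all 11345 genes, 1364 were higher for host in the main fit, 2087 with limma-trend, and 3471 and 3234 on 8 arrays without and with the block. With no filter, 0 of 18193 genes were called in either direction. In WT hosts 0 lower after irradiation became 5 with median-centred arrays, 15 at 1.5-fold, 34 with no fold threshold and 0 to 1 without 1 array. Of all 11345 genes, 23 became 106 with median-centred arrays, 249 at 1.5-fold and 1516 with no fold threshold. In TNFR KO hosts 4 became 1 with the mean of probe sets, 16 at 1.5-fold and 29 with no fold threshold. Over all genes, 55 of 11345 became 31 of 10414 with the mean of probe sets, and 423 and 1631 of 11345 at those fold settings. For the hosts compared in untreated tumours, 6 lower became 11 with median-centred arrays, 3 with the 75th percentile, 17 at 1.5-fold and 20 with no fold threshold. Over all genes, 709 of 11345 became 1118 with median-centred arrays, 406 of 7092 with the 75th percentile, and 1703 and 2698 of 11345 at those fold settings. In irradiated tumours 11 became 7 with a pseudocount of 64 or the 75th percentile, 4 with the mean of probe sets, 20 at 1.5-fold and 23 with no fold threshold. Over all genes, 843 of 11345 became 601 with a pseudocount of 64, and 1994 and 3093 at those fold settings. The 75th percentile gave 447 of 7092 genes and the mean of probe sets 514 of 10414. For the difference between radiation effects, 1 became 0 with median-centred arrays, 2 at 1.5-fold and 5 with no fold threshold. Over all 11345 genes, lower calls were 233, 165, 483 and 685 in turn, and higher calls were 18, 101, 164 and 399. The members' median of 0.04 was 0.27 with median-centred arrays, where that of all tested genes was 0.22. The members' median ranged from -0.0224 to 0.0542 when 1 array was left out, turning below 0 without the second WT irradiated array. The replicate block changed no count of members called between single pools. Median centring also changed the share of higher genes among all genes called, to 50.8% from 81.5% for radiation, where quantile normalization gave 91.7%, and to 19.4% from 38.9% for host. The cause of these shifts was not tested. With 1 pool in each group, none of these values holds the spread between animals, and dim probe sets depend on the pseudocount.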
